A study of Mus musculus with 12 samples.

Results

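The genes described here are 30 components, receptors and regulators of the complement system, chosen by symbol from a fixed list and found by Ensembl identifier among the 46603 genes of the deposited count table. They comprise 8 genes of the classical pathway, 6 of the lectin pathway, 4 of the alternative pathway including C3, 3 of the terminal pathway, 4 receptors or binding proteins and 5 regulators. RNA was sequenced from bulk ileum, the last segment of the small intestine, and from bulk synovium of the ankle, the joint lining, of TNFdARE mice and of wild-type (WT) littermates. Each of the 4 groups (TNFdARE ileum, WT ileum, TNFdARE synovium and WT synovium) had 3 libraries. TNFdARE mice lack the AU-rich element of the Tnf gene, which normally limits the stability and translation of its mRNA, and they are known to develop inflammation of the ileum and of the joints. The deletion is present in all cells of these animals, so a change in a tissue is not tied to Tnf made in that tissue. The labels give no treatment, age or sex, and they do not give the number of deleted copies.

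Complement is a cascade of plasma and tissue proteases that ends in cleavage of C3 and C5. The classical pathway starts with C1q and its proteases C1r and C1s, the lectin pathway with ficolins, collectins and MASP proteases, and both cut C4 and C2, while the alternative pathway amplifies C3 cleavage through factors B and D and properdin. The fragments C3a and C5a act on receptors of myeloid cells, the terminal components form a membrane pore, and host cells are protected by inhibitors such as Cd55, Cd59a and the C1 inhibitor Serping1. The liver supplies most circulating components, whereas C1q is made largely by macrophages and factor D (Cfd, adipsin) largely by adipocytes.

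The 12 libraries held between 14267834 and 16224402 counts. Tnf itself stood at 82.7, 17.2 and 47.3 CPM in the TNFdARE ileum libraries against 2.63, 1.39 and 1.62 in WT ileum, and at 38.4, 32.5 and 28.3 against 2.15, 2.02 and 1.89 CPM in synovium. CPM are counts per 1000000 counts of a library, scaled for library composition over all 12 libraries. Epithelial markers summed to between 9608 and 12192 CPM in TNFdARE ileum, 13610 and 14590 in WT ileum and at most 24.9 CPM in synovium, and the synovial lining gene Prg4 reached 3407 CPM or more in every synovium library and stayed below 1 CPM in ileum. Macrophage markers (7 genes) summed to between 1052 and 4578 CPM in TNFdARE ileum against 329 to 377 in WT ileum, and to between 4626 and 6150 against 1597 to 2016 in synovium. The 7 genes did not all follow the sum. In ileum 5 had a positive and 2 a negative log2 fold change in TNFdARE, Cd163 (-0.83) and Mertk (-0.16). Of the 7, 3 were higher at an adjusted p under 0.05 (edgeR), beside 4.12% of all genes. In synovium 6 were positive and 1 negative, with Cd163 at -0.13 and Mertk at 0.01. There 5 of the 7 were higher at that level, beside 13.1% of all genes. In ileum neutrophil markers (7 genes) summed to between 77.2 and 446 CPM in TNFdARE against 5.21 to 8.38 in WT, and fibroblast markers (7 genes) to between 1473 and 1649 against 919 to 1050. The part of these cell types in the ileum rises was not tested. In the WT synovium, skeletal muscle markers (7 genes) summed to between 10946 and 18843 CPM against 1765 to 7047 in TNFdARE synovium, and the 5 adipocyte markers to between 1124 and 1621 against 477 to 705. These are bulk tissues, in which fewer cells of a type and less RNA per cell cannot be told apart.

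Complement RNA was higher in both tissues of TNFdARE mice, but the set of genes that rose differed in part between them. In the ileum 10 of the 27 complement genes tested rose in TNFdARE mice and none fell, beside 4.12% of all 15462 genes tested that rose and 1.57% that fell. The median log2 fold change of the complement genes was 0.82, against -0.002 for all genes. In the synovium 11 of 28 rose and 5 fell, beside 13.1% and 10.7% of all 15599 genes, with a median of 0.27 against 0.003. The 30 genes together took 0.271 to 0.708% of the counts in TNFdARE ileum against 0.081 to 0.098% in WT ileum, and 0.875 to 1.07% against 0.393 to 0.471% in synovium. Every adjusted p here comes from the two-sided quasi-likelihood test of edgeR, adjusted by Benjamini-Hochberg across the genes that entered that comparison, and a change is called below 0.05. Hc and Masp2 were too low to test in either tissue, and Colec11 too low in ileum.

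The ileum calls stood close to the threshold, with adjusted p between 0.0389 and 0.0449, and depended on single libraries. The number of complement genes called was 4 without TNFdARE replicate 1, 19 (15 higher and 4 lower) without TNFdARE replicate 2, and 0 without TNFdARE replicate 3 or without any 1 of the 3 WT libraries. Of all genes, 213 were higher and 65 lower of 15677 without TNFdARE replicate 1, and 2609 higher and 2024 lower of 15813 without TNFdARE replicate 2. Where the count was 0, between 17 and 19 complement genes had an unadjusted p under 0.05, the same measure being 17 with all libraries. Over all genes that measure was 3158 to 3550 in those fits, of 15688 to 15856 tested, and 4716 of 15462 with all libraries. DESeq2 called 17 complement genes, and 1680 of all genes higher and 1035 lower. With limma-voom 0 complement genes and 0 of all genes were called, with 18 and 4584 at an unadjusted p under 0.05.

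**Figure D1:**
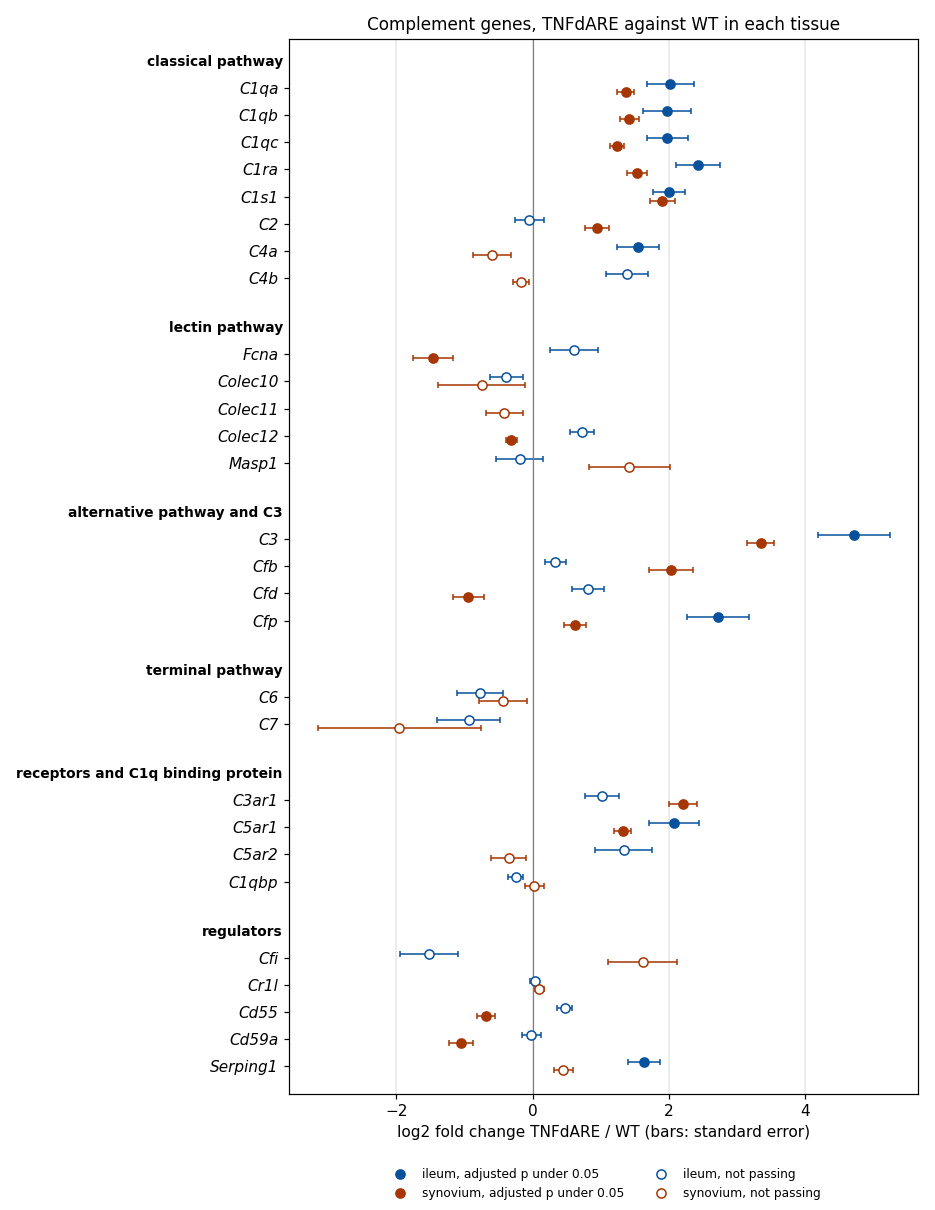
Log2 fold change of TNFdARE against WT (horizontal axis) for each complement gene tested, grouped by pathway arm, in ileum (blue) and synovium (brown). Bars are standard errors and filled points have an adjusted p under 0.05. The C1 complex genes and C3 lie to the right of 0 in both tissues, while Cd55, Cd59a, Fcna, Colec12 and Cfd lie to the left of 0 with filled points in synovium only, a difference tested by the interaction.

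The classical pathway contributed most of the shared rises, those of C1qa, C1qb, C1qc, C1ra and C1s1. In ileum 6 of its 8 genes rose, C4a among them, beside 4.12% of all genes. In synovium 6 of 8 rose, C2 but not C4a among them, beside 13.1% of all genes. C1qa, which encodes the A chain of C1q, stood at 319.6, 134 and 246 CPM in the TNFdARE ileum libraries and at 68.9, 46.5 and 57.2 CPM in WT ileum. In synovium it stood at 440.1, 317 and 385 CPM against 142, 150.4 and 158. All TNFdARE libraries lay above all WT libraries of the same tissue, and TNFdARE replicate 2 was the lowest of its group in both tissues. The log2 fold changes of C1qa were 2.02 ± 0.34 (SE, adjusted p = 0.0412) in ileum and 1.37 ± 0.12 (SE, adjusted p = 0.000774) in synovium. The B and C chains moved by similar amounts: C1qb by 1.97 ± 0.35 and 1.42 ± 0.14 and C1qc by 1.98 ± 0.30 and 1.24 ± 0.10 in the same order. Relative to C1qa, C1qb was measured at 0.804 to 0.927 per unit of transcript length in all 12 libraries. C1qc per C1qa was at 0.385 to 0.468 in ileum and 0.493 to 0.576 in synovium, separate between the tissues. It overlapped between the genotypes in ileum, and in synovium it was lower in TNFdARE (0.493 to 0.524) than in WT (0.539 to 0.576).

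The genes of the C1 proteases rose with those of C1q. C1ra, the protease that activates C1s, was at 203, 87.2 and 166 CPM in TNFdARE ileum and 31.9, 24.6 and 28.6 CPM in WT ileum. In synovium C1ra was at 269, 175 and 203 CPM against 74.2, 74.8 and 79.3. These are log2 fold changes of 2.43 ± 0.33 (SE, adjusted p = 0.0404) and 1.53 ± 0.15 (SE, adjusted p = 0.00115), with no overlap between genotypes in either tissue. C1s1, the protease that cuts C4 and C2, was at 489.8, 269.9 and 429 CPM against 114, 89.5 and 93.5 in ileum. In synovium C1s1 was at 659.9, 398 and 477 CPM against 138, 129 and 149.8. Its change was nearly the same size in both tissues, 2.01 ± 0.24 (SE, adjusted p = 0.0389) in ileum and 1.91 ± 0.18 (SE, adjusted p = 0.00115) in synovium. Of the 100-base stretches of C1ra and C1s1 transcripts, 35.9% and 6.87% also occur in another gene, mainly the copies C1rb and C1s2, which stood at 2.22 CPM or less and 1.90 CPM or less in every library.

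The 2 substrates of C1s behaved differently from the C1 genes. C4b, which encodes complement C4, was at 299.6, 133 and 219.6 CPM in TNFdARE ileum against 101, 73.3 and 75.8 in WT. This log2 difference of 1.39 ± 0.31 (SE, adjusted p = 0.0558) passed in 5 of 15 alternatives, among them the replicate number as a block (1.33, adjusted p = 0.0257). In synovium C4b was already at 499, 434 and 474 CPM in WT and stood at 460.3, 421 and 343 in TNFdARE, a difference of -0.17 ± 0.12 (SE, adjusted p = 0.332). The genotype effect on C4b differed between the tissues, with an interaction of -1.58 ± 0.35 (SE, adjusted p = 0.02). Its call ended without WT ileum replicate 3 or without TNFdARE synovium replicate 3, at an adjusted p of at most 0.0523. The related copy C4a is annotated as a processed transcript and not as a protein-coding gene. It made up 0.353 to 1.10% of the counts of the pair. Of its 100-base stretches 13.1% also occur in C4b, so its values are uncertain. C4a was at 1.71, 1.48 and 2.04 CPM in TNFdARE ileum and 0.624, 0.730 and 0.422 in WT ileum, and at 1.92, 1.90 and 1.22 against 2.15, 2.99 and 2.61 in synovium. It rose in ileum by 1.55 ± 0.31 (SE, adjusted p = 0.0449) and differed by -0.59 ± 0.28 (SE, adjusted p = 0.166) in synovium. The ileum call was lost in 10 of 15 alternatives, the replicate block among them (1.55, adjusted p = 0.066), with log2 changes from 0.204 to 1.72. For C4a too the genotype effects differed, by -2.17 ± 0.41 (SE, adjusted p = 0.0095).

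C2, the second substrate of C1s, showed the reverse tissue pattern. It was at 23.1, 19.7 and 16.4 CPM in TNFdARE synovium against 12.7, 9.96 and 8.81 in WT synovium, and at 17.5, 14.6 and 25.1 against 18.02, 18.8 and 22.7 in ileum. The synovium groups were separate and the ileum groups overlapped. C2 rose in synovium by 0.94 ± 0.18 (SE, adjusted p = 0.00984) and differed in ileum by -0.05 ± 0.21 (SE, adjusted p = 0.89). The interaction of 0.97 ± 0.30 (SE, adjusted p = 0.0599) passed in 6 of 18 alternatives, the replicate block among them (1.00, adjusted p = 0.0115). In the annotation 42.8% of C2 exon bases, and 79.5% of those of its neighbour Cfb, lie under the gene model Gm20547 on the same strand, which has 0 counts in all 12 libraries. How reads shared with it were assigned is not given, so the levels of C2 and Cfb are uncertain.

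C3, the component on which all 3 pathways converge, had the largest rise of the 30 genes in both tissues. It was at 4141, 1188 and 2676 CPM in TNFdARE ileum against 129, 79.3 and 97.2 in WT ileum. In synovium it was at 4959, 3974 and 3827 CPM against 346, 403 and 528. The genotypes were far apart in both tissues, with TNFdARE ileum replicate 2, which also had the least Tnf of its group, the lowest of the TNFdARE libraries. C3 rose 26.3-fold in ileum (log2 4.72 ± 0.53 (SE, adjusted p = 0.0389)) and 10.2-fold in synovium (log2 3.35 ± 0.20 (SE, adjusted p = 0.000216)). The interaction of -1.39 ± 0.53 (SE, adjusted p = 0.107) did not pass. It passed in 2 of 18 alternatives, DESeq2 and leaving out TNFdARE ileum replicate 2. C3 alone made up 43.3 to 59.3% of the counts of the 30 genes in TNFdARE ileum and 46.8 to 48.0% in TNFdARE synovium, against 9.16 to 12.1% and 8.58 to 12.02% in the WT tissues. Per kilobase of exon it became the most abundant of the 30 in both TNFdARE tissues, at 519 and 827 CPM per kilobase, where it had ranked 7th in WT ileum and 5th in WT synovium.

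**Figure D2:**
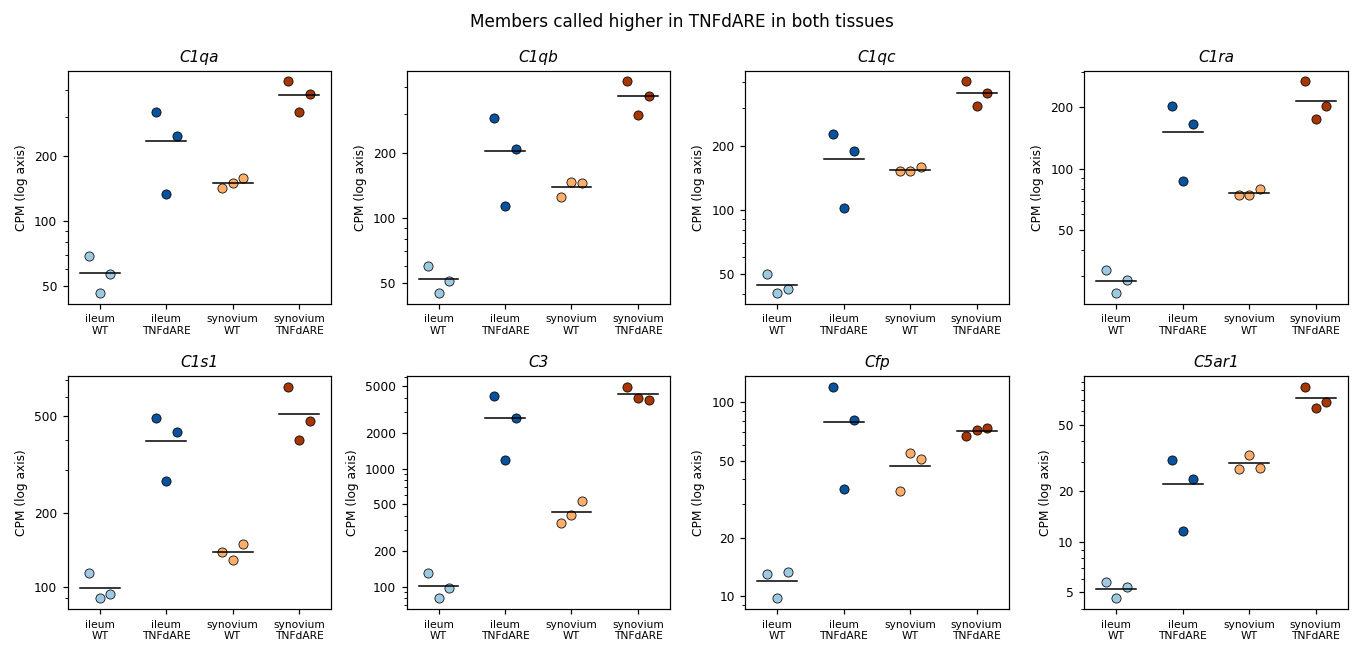
CPM (log axis) of the 8 complement genes that rose in TNFdARE mice in both tissues, in each of the 4 groups. Points are single libraries in the order of replicates 1 to 3 and lines are group means of 3 libraries. In every panel the 3 TNFdARE libraries of a tissue lie above its 3 WT libraries, and the middle TNFdARE ileum library is the lowest of its group.

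Among the other genes of the alternative pathway, factor B and properdin rose in different proportions in the tissues. Cfb, which provides the protease of the alternative C3 convertase, was at 6.89, 5.01 and 7.70 CPM in TNFdARE synovium against 1.73, 0.976 and 2.15 in WT synovium. Its level carries the uncertainty given for Gm20547. In ileum Cfb was at 12.1, 12.5 and 11.2 CPM against 8.18, 11.2 and 9.08. Cfb rose in synovium by 2.04 ± 0.32 (SE, adjusted p = 0.00545) and differed by 0.33 ± 0.15 (SE, adjusted p = 0.195) in ileum, where the groups overlapped. The interaction was 1.68 ± 0.35 (SE, adjusted p = 0.016). Cfp, properdin, which stabilises that convertase, showed the reverse order. It was at 120.4, 35.6 and 81.1 CPM in TNFdARE ileum against 13.0, 9.71 and 13.3, and at 67.0, 71.9 and 73.2 against 34.8, 54.9 and 50.7 in synovium. Its rises were 2.72 ± 0.46 (SE, adjusted p = 0.0412) and 0.62 ± 0.17 (SE, adjusted p = 0.0371), with an interaction of -2.12 ± 0.50 (SE, adjusted p = 0.0243). The synovium call of Cfp was lost in 9 of 16 alternative analyses and its interaction in 10 of 18, with adjusted p up to 0.681 and 0.08. Leaving out any 1 TNFdARE synovium library or WT synovium replicate 3 ended the first, and leaving out TNFdARE synovium replicate 1 or 3, WT synovium replicate 2 or 3, TNFdARE ileum replicate 3 or any 1 WT ileum library ended the second.

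Cfd, factor D, which cuts factor B, was the most abundant of the 30 genes per kilobase in WT synovium (967 CPM per kilobase) and fell there in TNFdARE mice. It was at 469.9, 588 and 305 CPM in TNFdARE synovium against 866, 862 and 946 in WT synovium, and at 26.3, 34.0 and 28.9 against 22.5, 11.97 and 16.4 in ileum. The fall was -0.94 ± 0.23 (SE, adjusted p = 0.0268). The ileum difference was 0.82 ± 0.23 (SE, adjusted p = 0.0788) and the interaction -1.78 ± 0.35 (SE, adjusted p = 0.0121). All 5 adipocyte markers fell in synovium with a median log2 change of -1.30, Adipoq among them (-1.03 (adjusted p = 0.0146)). Their sum in ileum was 56.1 to 79.9 CPM in TNFdARE mice and 47.8 to 54.7 CPM in WT mice. The part of adipocyte RNA in the change of Cfd was not tested. The synovium call of Cfd was lost in 8 of 16 alternatives, with adjusted p up to 0.665, including leaving out TNFdARE replicate 1 or any 1 WT library.

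**Figure D3:**
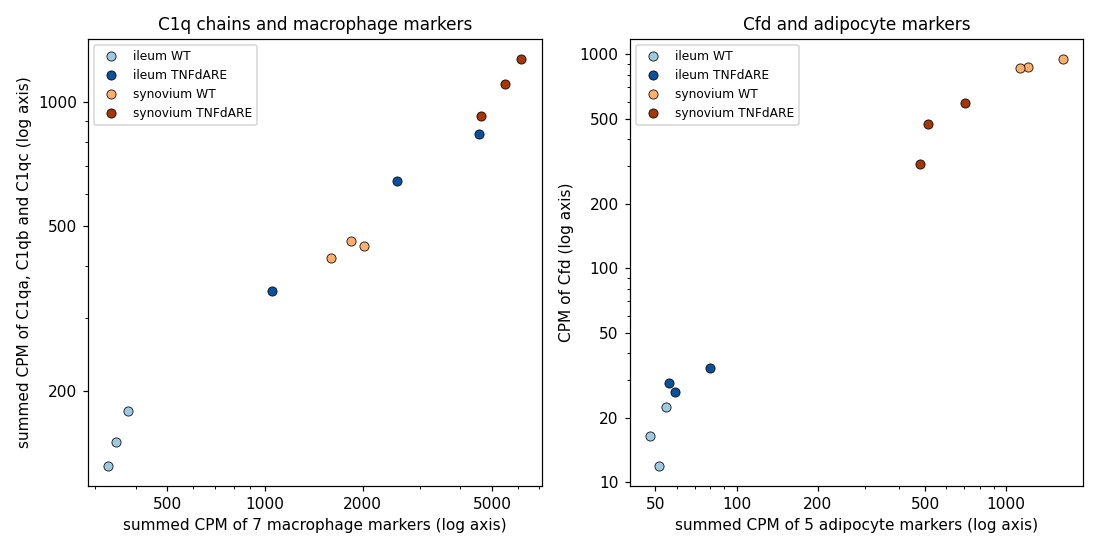
Summed CPM of the 3 C1q genes against summed CPM of 7 macrophage markers (left) and CPM of Cfd against summed CPM of 5 adipocyte markers (right), both on log axes, with 1 point per library coloured by group. The C1q sum is highest in the TNFdARE synovium libraries, which also hold the most macrophage marker RNA, and Cfd is highest in the WT synovium libraries, which hold the most adipocyte marker RNA.

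The C1q genes were also set against macrophage genes within each library. C1q counts per count of Csf1r, the receptor for the macrophage growth factor, were 1.18 to 1.41 in TNFdARE ileum against 1.80 to 2.07 in WT ileum, and 1.147 to 1.5002 against 1.13 to 1.18 in synovium. Per count of Adgre1, which encodes the macrophage antigen F4/80, they were 9.95 to 12.3 against 7.63 to 9.04 in ileum and 5.07 to 5.34 against 6.59 to 7.04 in synovium. In ileum the direction depended on the macrophage gene chosen, and in synovium the genotypes overlapped for Csf1r and were lower in TNFdARE for Adgre1. Csf1r itself rose by 2.57 ± 0.39 in ileum and 1.14 ± 0.08 in synovium. The part of macrophage RNA in the rises of C1q was not tested.

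Promoter windows are printed for 4 of the 8 genes that rose in both tissues, to show the sequence at the start of genes that moved together. They run from 250 bases before to 50 bases after the RefSeq start in GRCm38.p6 and were taken in order of the smallest synovium adjusted p. RefSeq windows were at hand for 20 of the 30 genes and for 7 of these 8. Capitals mark matches, on either strand, to the NF-kB consensus by name, C/EBP (TTNNGNAA), STAT (TTCNNNGAA), the interferon-stimulated response element (ISRE) by name and TATAAA, and positions count bases from the start. C3 lies at chr17:57228087-57228386, C1qc at chr4:136892865-136893164, C5ar1 at chr7:16259289-16259588 and C1qb at chr4:136886151-136886450, all on the minus strand, and all are written 5′ to 3′.
C3: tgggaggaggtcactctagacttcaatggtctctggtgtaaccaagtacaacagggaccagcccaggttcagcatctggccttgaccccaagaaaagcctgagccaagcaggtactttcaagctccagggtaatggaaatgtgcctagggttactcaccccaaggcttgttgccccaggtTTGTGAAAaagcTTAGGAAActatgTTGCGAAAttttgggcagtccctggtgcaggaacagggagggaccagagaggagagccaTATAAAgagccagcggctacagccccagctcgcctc
C1qc: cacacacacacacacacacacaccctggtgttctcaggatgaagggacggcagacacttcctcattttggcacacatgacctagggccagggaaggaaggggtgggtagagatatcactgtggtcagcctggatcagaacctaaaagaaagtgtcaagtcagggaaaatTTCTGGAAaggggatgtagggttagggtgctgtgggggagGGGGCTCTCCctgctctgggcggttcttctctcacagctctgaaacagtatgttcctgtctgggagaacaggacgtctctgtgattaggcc
C5ar1: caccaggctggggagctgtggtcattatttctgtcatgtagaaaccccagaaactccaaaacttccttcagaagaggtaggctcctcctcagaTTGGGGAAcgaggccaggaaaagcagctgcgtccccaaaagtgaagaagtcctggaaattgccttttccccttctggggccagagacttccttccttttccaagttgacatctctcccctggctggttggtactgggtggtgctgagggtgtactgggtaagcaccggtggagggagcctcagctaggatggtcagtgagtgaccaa
C1qb: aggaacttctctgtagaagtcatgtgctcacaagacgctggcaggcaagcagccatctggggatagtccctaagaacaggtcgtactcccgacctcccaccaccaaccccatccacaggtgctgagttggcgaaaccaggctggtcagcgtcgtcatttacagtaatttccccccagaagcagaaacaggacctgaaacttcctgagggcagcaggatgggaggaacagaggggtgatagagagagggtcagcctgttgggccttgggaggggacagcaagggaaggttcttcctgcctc

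C3, the gene with the largest rise, had 3 C/EBP matches that begin 70, 58 and 45 bases before the start, and TATAAA begins 14 bases after it. C1qc had a C/EBP match 81 bases before the start and the NF-kB match 41 bases before it, C5ar1 had a C/EBP match 157 bases before, and C1qb had no match. The NF-kB consensus was in 1 of the 20 complement windows and in 4.51% of all 32851 windows, and C/EBP in 11 of 20 and in 40.7%. STAT was in 4 of 20 and 8.30%, the interferon element in 2 of 20 and 3.44%, and TATAAA in 4 of 20 and 13.6%. C/EBP and TATAAA are short motifs, and these matches describe letters and not bound sites.

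No lectin pathway gene was called higher in either tissue. In ileum 0 of 4 genes tested rose, beside 4.12% of all genes, and in synovium 0 rose and 2 fell of 5, beside 13.1% and 10.7%. Fcna, ficolin A, a macrophage lectin, was at 7.31, 8.41 and 7.24 CPM in TNFdARE synovium against 14.7, 31.4 and 18.4 in WT synovium, without overlap. In ileum Fcna was at 1.84, 1.97 and 1.05 CPM against 0.901, 1.39 and 0.915. It changed in synovium by -1.46 ± 0.29 (SE, adjusted p = 0.0139), and the interaction was -2.10 ± 0.46 (SE, adjusted p = 0.0189). Fcna moved opposite to C1q and to the summed macrophage markers in the same synovium libraries. Of the 7 markers 5 were called higher there, while Cd163 (-0.13) and Mertk (0.01) were not. The macrophage receptor Vsig4 changed by -0.46 (adjusted p = 0.0314), a call lost in 6 of 16 alternatives. The synovium call of Fcna was lost in 2 of 16 alternatives, among them leaving out TNFdARE replicate 3. Its interaction call was lost with limma-voom and without WT ileum replicate 1 or 3, at an adjusted p of at most 0.108.

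Colec12, a collectin that is also a scavenger receptor, was at 280.4, 253 and 259.8 CPM in TNFdARE synovium and 322, 333 and 347 in WT synovium. In ileum it was at 31.2, 22.0 and 20.6 CPM against 13.6, 16.1 and 15.1. It changed in synovium by -0.31 ± 0.08 (SE, adjusted p = 0.0256), a small change, and differed in ileum by 0.72 ± 0.18 (SE, adjusted p = 0.0595). The interaction of -1.06 ± 0.19 (SE, adjusted p = 0.00836) passed. The synovium call was lost in 7 of 16 alternatives, among them leaving out TNFdARE replicate 2 or 3 or WT replicate 2 or 3. Masp1, a MASP protease, was at 11.5, 3.86 and 18.4 CPM against 4.50, 2.60 and 5.74 in synovium, with overlap, and its difference of 1.42 ± 0.60 (SE, adjusted p = 0.137) passed only where replicates were paired (1.30, adjusted p = 0.00668), with DESeq2 or without TNFdARE replicate 2. Colec10 was an ileum gene, at 13.1 to 23.5 CPM in TNFdARE mice there and 19.7 to 27.8 CPM in WT mice, with at most 2.09 CPM in synovium. Colec11 was at 1.56 to 2.70 CPM and 2.61 to 3.46 CPM in the synovium groups and at most 0.492 CPM in ileum, and Masp2 was at most 0.390 CPM in any library.

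Among the terminal components C5 had next to no RNA, C6 was low in both tissues and C7 was uneven. Hc, which encodes C5, the precursor of the C5a fragment, reached at most 0.876 CPM in any library. C6 was at 2.16, 5.56 and 4.07 CPM in TNFdARE ileum against 7.35, 5.69 and 7.11 in WT ileum, below it in every library, with a difference of -0.77 ± 0.34 (SE, adjusted p = 0.175). In synovium C6 was at 3.30 to 7.43 CPM against 4.83 to 7.87. C7 varied widely between libraries of 1 group. It was at 11.1, 14.0 and 0.753 CPM in TNFdARE synovium and 70.0, 28.5 and 4.31 CPM in WT synovium, with replicate 3 the lowest of both groups, and its difference of -1.95 ± 1.20 (SE, adjusted p = 0.29) passed only with the replicate block (-1.90, adjusted p = 0.0316). In both tissues replicate 3 was also the number whose libraries expressed Xist and had no Y-linked counts, and the part of sex in C7 was not tested. The fold of C7 turned positive (1.89, adjusted p = 0.762) when the level of muscle markers was a covariate.

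Among the receptors, C5ar1 rose in both tissues and C3ar1 in synovium. C5ar1, the signalling receptor for C5a, was at 30.8, 11.5 and 23.8 CPM in TNFdARE ileum against 5.75, 4.60 and 5.35, and at 84.1, 63.1 and 68.6 against 27.1, 33.1 and 27.7 in synovium. Its rises were 2.08 ± 0.36 (SE, adjusted p = 0.0409) and 1.32 ± 0.13 (SE, adjusted p = 0.000993). C3ar1, the receptor for C3a, was at 210.1, 132 and 159.9 CPM in TNFdARE synovium against 44.1, 31.4 and 35.2 in WT synovium. In ileum C3ar1 was at 20.6, 12.2 and 18.1 CPM against 6.79, 10.6 and 7.74, also without overlap. It rose in synovium by 2.21 ± 0.20 (SE, adjusted p = 0.0012), more than any other receptor, and differed in ileum by 1.02 ± 0.25 (SE, adjusted p = 0.0584). The interaction of 1.16 ± 0.34 (SE, adjusted p = 0.051) passed in 8 of 18 alternatives, the replicate block among them (1.16, adjusted p = 0.0484). RNA for C5ar1 thus rose in a synovium that had at most 0.288 CPM of RNA for C5 itself. The rise of C3ar1 there stood beside a 10.2-fold rise of C3.

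C5ar2, the second C5a receptor, which does not couple to G proteins, did not follow C5ar1 in synovium. It was at 6.53, 8.70 and 7.41 CPM in TNFdARE synovium against 6.37, 11.8 and 11.3 in WT, with overlap, and at 4.70, 2.39 and 4.28 against 1.87, 0.730 and 1.90 in ileum. Neither difference passed, at -0.35 ± 0.25 (SE, adjusted p = 0.353) and 1.34 ± 0.42 (SE, adjusted p = 0.0955). The ileum value passed in 4 of 15 alternatives, the replicate block among them (1.37, adjusted p = 0.041). The interaction passed in 4 of 18, among them the block (-1.71, adjusted p = 0.0107, against 0.0531 without it). The count ratio of C5ar1 to C5ar2 was 7.26 to 12.9 in TNFdARE synovium against 2.46 to 4.25 in WT synovium, and 4.82 to 6.55 against 2.81 to 6.30 in ileum. It was separate between the genotypes in synovium and overlapped in ileum. C1qbp, a mostly mitochondrial protein that binds C1q, was at 51.3 to 54.7 and 57.2 to 73.9 CPM in the ileum groups and at 31.6 to 41.5 and 32.5 to 40.8 CPM in synovium, and neither difference passed.

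The 5 regulators did not move as a group. In ileum 1 rose and 0 fell, beside 4.12% and 1.57% of all genes, and in synovium 0 rose and 2 fell, beside 13.1% and 10.7%. Cd55, which speeds the decay of C3 convertases on the cell surface, was at 99.0, 113 and 80.6 CPM in TNFdARE synovium against 161, 144 and 175 in WT synovium. In ileum it was at 79.9, 99.3 and 85.1 CPM against 62.6, 59.2 and 69.4. The genotypes were separate in both tissues, in opposite directions. Cd55 changed in synovium by -0.69 ± 0.13 (SE, adjusted p = 0.0116), differed in ileum by 0.47 ± 0.10 (SE, adjusted p = 0.0515) and had an interaction of -1.18 ± 0.18 (SE, adjusted p = 0.00447), the smallest adjusted p of the 30 genes in that test. Cd59a, which blocks the membrane pore, was at 10.4, 14.9 and 10.7 CPM against 24.1, 23.0 and 29.2 in synovium and at 18.9, 19.7 and 19.0 against 16.6, 18.5 and 23.6 in ileum. It changed in synovium by -1.05 ± 0.17 (SE, adjusted p = 0.0062), overlapped between genotypes in ileum and had an interaction of -1.06 ± 0.24 (SE, adjusted p = 0.0199). Without TNFdARE synovium replicate 3, or without WT ileum replicate 1 or 2, that interaction did not pass, at an adjusted p of at most 0.0613.

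Serping1, the C1 inhibitor, was the regulator that rose in ileum. It was at 492, 261 and 416 CPM in TNFdARE ileum against 141, 120.0 and 116 in WT ileum. In synovium it was at 1349, 959 and 1078 CPM against 836, 785 and 904, also without overlap. Its ileum rise was 1.64 ± 0.24 (SE, adjusted p = 0.0404). The synovium difference of 0.45 ± 0.14 (SE, adjusted p = 0.0505) passed in 6 of 16 alternatives, the replicate block among them (0.44, adjusted p = 0.0374). The interaction of -1.21 ± 0.29 (SE, adjusted p = 0.025) was lost in 5 of 18 alternatives, all of them leaving out 1 library (TNFdARE ileum replicate 3, WT ileum replicate 2 or 3, TNFdARE synovium replicate 3 or WT synovium replicate 3). Cfi, the protease that inactivates C3b and C4b, was low everywhere, at 0.698, 1.55 and 0.773 CPM against 3.53, 1.75 and 3.38 in ileum and 1.38, 1.152 and 2.09 against 0.208, 0.455 and 0.848 in synovium. It lay below WT in all TNFdARE ileum libraries and above WT in all TNFdARE synovium libraries. The single-tissue differences were -1.52 ± 0.42 (SE, adjusted p = 0.0748) in ileum and 1.61 ± 0.50 (SE, adjusted p = 0.0552) in synovium. The first passed in 3 of 15 alternatives and the second in 8 of 16, where the replicate block gave 1.67 (adjusted p = 0.0214). The interaction was 3.11 ± 0.69 (SE, adjusted p = 0.0193), and it did not pass without replicate 3 of TNFdARE ileum or of TNFdARE synovium. Cr1l, known as Crry, the main membrane regulator of C3 convertases in mice, was the steadiest gene, between 77.9 and 91.0 CPM in all 12 libraries.

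**Figure D4:**
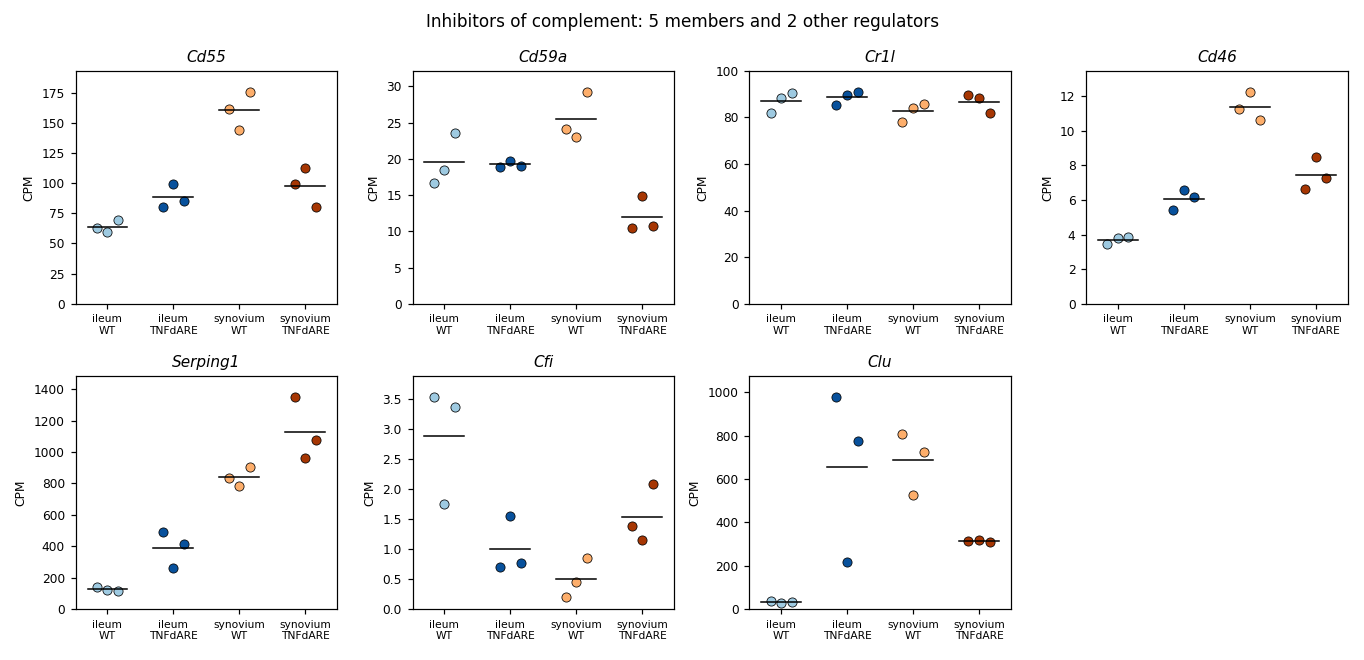
CPM of 7 inhibitors of complement in the 4 groups, 5 of the 30 genes and 2 others (Cd46 and Clu), with points for single libraries and lines for means of 3. Cd55, Cd59a, Cd46 and Clu are lower in TNFdARE than in WT synovium, Serping1 is higher in TNFdARE ileum, and Cr1l differs little between the groups.

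Markers of several cell types were also lower in the TNFdARE synovium libraries that held the falls. Skeletal muscle markers did not overlap between the genotypes, although 1 of the 7 was called, and the 3 synovial lining markers, all called, summed to 3494 to 4176 CPM in TNFdARE against 13325 to 15620 in WT synovium. Endothelial markers (3 of 5 called) summed to between 483 and 588 CPM against 633 to 664, and the 5 B cell markers (Cr2 alone called) to between 47.1 and 101 CPM against 108 to 223. With the level of muscle markers as a covariate, 9 of the 28 genes passed, all of them higher in TNFdARE: C1qa, C1qb, C1qc, C1ra, C1s1, C2, C3, C3ar1 and C5ar1. These 9 passed in each of the 16 alternative analyses of the synovium. Cd55 (-0.42), Cd59a (-1.06), Fcna (-1.73), Colec12 (-0.29), Cfd (-0.41), Cfb (1.83) and Cfp (0.31) no longer passed with the covariate, at adjusted p between 0.167 and 0.681. The folds of Cd59a, Fcna, Colec12 and Cfb stayed near their size without the covariate, and those of Cd55, Cfd and Cfp were smaller. Muscle level and genotype moved together in these 6 libraries, so that their shares in these changes cannot be told apart. Over all genes the covariate took the calls from 2037 higher and 1676 lower to 268 and 52.

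The difference between the tissues was tested directly as the change in synovium minus the change in ileum over all 12 libraries. Of 28 genes tested, 2 had a more positive and 9 a more negative change in synovium, beside 5.28% and 6.80% of all 16964 genes. The median interaction was -0.77 for the complement genes and -0.08 for all genes. Cfb and Cfi were the 2 in the positive direction. C4a, C4b, Fcna, Colec12, Cfd, Cfp, Cd55, Cd59a and Serping1 were the 9 in the negative direction. The C1q chains, C1ra, C1s1, C3 and C5ar1 rose in both tissues and did not pass this test, with interactions between -1.39 and -0.12. Without TNFdARE ileum replicate 2 all of these but C1s1 passed, with a smaller rise in synovium, and C3 also passed with DESeq2. The count was 20 without TNFdARE ileum replicate 2, 7 without WT ileum replicate 3 and 6 without TNFdARE synovium replicate 3. Of all genes these fits called 1814 higher and 1692 lower, 698 and 484, and 499 and 516 in that order, against 896 and 1154 with all libraries. C4a, Cfb, Cfd, Colec12 and Cd55 passed in all 18 alternative analyses.

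In WT mice most complement RNA was more abundant in synovium. Of 28 genes, 18 were higher and 5 lower in WT synovium than in WT ileum, beside 38.2% and 36.0% of all 16964 genes, with a median log2 difference of 1.75. Among the higher genes Cfd had the largest difference, 5.72 ± 0.30 (SE, adjusted p = 2.52e-08), followed by Colec12 (4.48 ± 0.15) and Fcna (4.33 ± 0.34). The 5 genes lower in synovium were Colec10 (-4.46 ± 0.46), Cfb (-2.55 ± 0.27), Cfi (-2.49 ± 0.50), C2 (-0.92 ± 0.22) and C1qbp (-0.82 ± 0.14). Among TNFdARE mice the tissues were closer, with 13 genes higher and 4 lower in synovium, beside 31.6% and 35.0% of all genes, and a median of 0.69. C3 was 2.06 ± 0.39 higher in WT synovium, a called difference, and 0.67 ± 0.37 (SE, adjusted p = 0.132) in TNFdARE synovium. WT ileum was the lowest of the 4 groups for 18 of the 30 genes, and WT synovium for 5, C2, Cfi and Cfb among them. These comparisons share libraries with the genotype comparisons and are not independent of them.

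**Figure D5:**
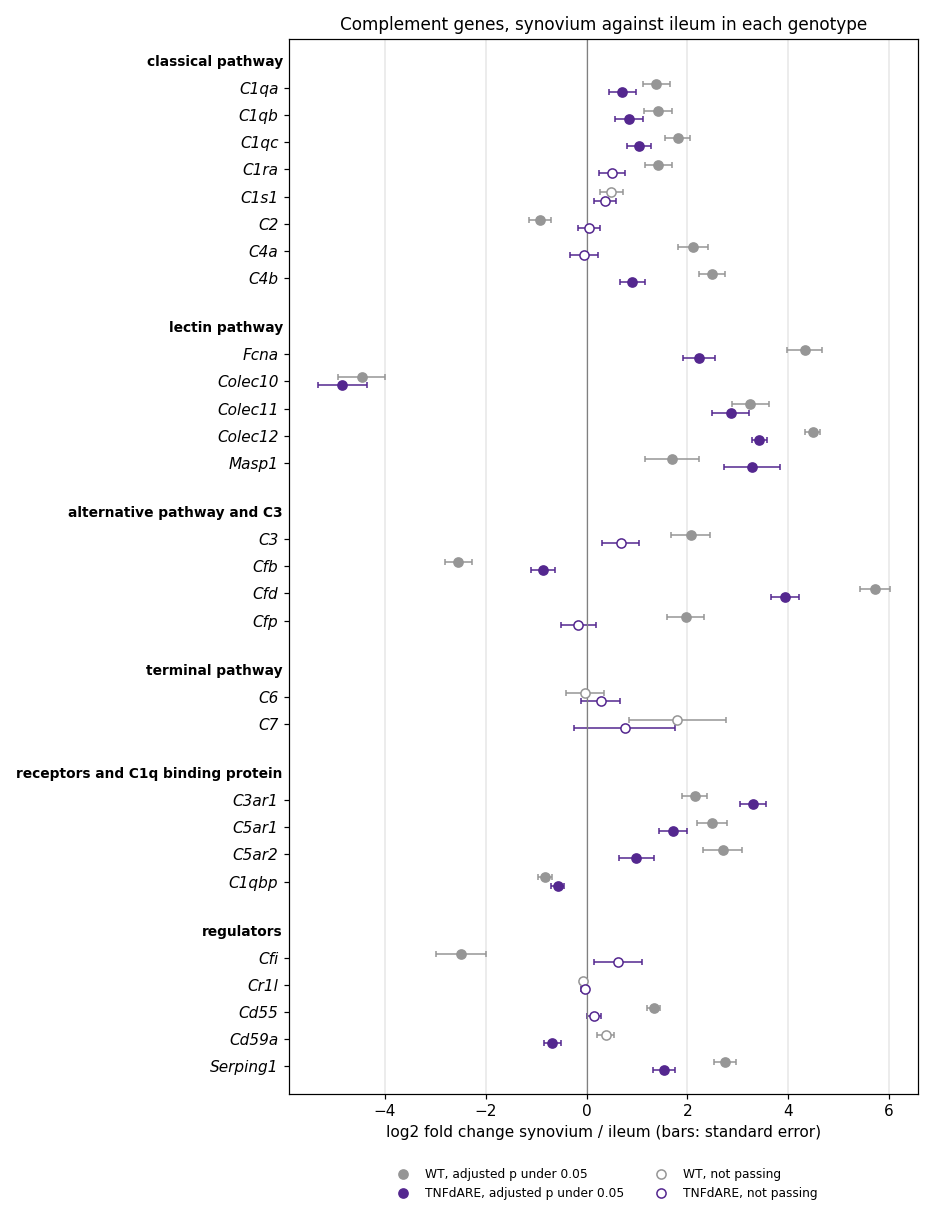
Log2 fold change of synovium against ileum (horizontal axis) for each complement gene tested, in WT (grey) and TNFdARE (purple) mice, with standard errors. Filled points have an adjusted p under 0.05. Most WT points lie right of 0, with Cfd farthest at 5.72, and those of C3, C4a, Cfp, C1ra, Cd55, C2 and Cfi are filled in WT and open in TNFdARE mice.

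A further 26 complement genes were examined as the rest of the pathway. In ileum 4 of the 14 tested rose and 0 fell, beside 4.12% and 1.57% of all genes, and in synovium 5 rose and 4 fell of 15, beside 13.1% and 10.7%. The complement receptor chains Itgax, Itgam and Itgb2, which form the integrins CR4 and CR3 (Itgb2 is shared) of myeloid cells, rose in synovium by 1.73 (adjusted p = 8.52e-05), 1.32 (adjusted p = 0.00455) and 1.28 (adjusted p = 0.00429). In ileum Itgax rose by 2.70 (adjusted p = 0.0404), while Itgam (1.01 (adjusted p = 0.0679)) and Itgb2 (2.67 (adjusted p = 0.0515)) did not pass, although they did with the replicate block, at adjusted p of 0.0113 and 0.0471, and in 3 and 4 other alternatives of 15. Csmd1, a membrane inhibitor, rose in both tissues, by 2.83 (adjusted p = 0.0455) in ileum and 1.73 (adjusted p = 0.000869) in synovium. Cd93, once described as a C1q receptor, rose in ileum by 0.69 (adjusted p = 0.041), and C1rl, a C1r-like protease, rose in synovium by 0.88 (adjusted p = 0.00487). C8g, Vtn and Susd4 passed in neither tissue, and Cd55b, Cd59b and Cpn2 were too low to test in either, at 0.846 CPM or less in every library.

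Clusterin (Clu), a fluid-phase inhibitor of the membrane pore, changed in opposite directions. It was at 977, 216 and 776 CPM in TNFdARE ileum against 36.7, 26.2 and 31.0 in WT ileum, and at 313, 317 and 307 against 809, 524 and 725 in synovium. The changes were 4.39 ± 0.60 (SE, adjusted p = 0.0404) and -1.10 ± 0.15 (SE, adjusted p = 0.00356), and the interaction was -5.52 ± 0.62 (SE, adjusted p = 0.00129). In synovium Cd46, a membrane inhibitor, changed by -0.58 (adjusted p = 0.0278), Cr2 by -1.37 (adjusted p = 0.0335) and Vsig4, a macrophage receptor for C3b, by -0.46 (adjusted p = 0.0314). With the muscle covariate the synovium changes of Cd46, Clu, Cr2, Vsig4, Itgam, Itgb2 and C1rl no longer passed, at adjusted p between 0.0803 and 0.709. The folds of Clu (-0.95), Itgam (1.146), Itgb2 (1.12), C1rl (0.87) and Cd46 (-0.65) stayed near their size, that of Vsig4 shrank (-0.20) and that of Cr2 grew (-2.47). Leaving out any 1 of the 6 synovium libraries ended the call of at least 1 of Cd46, Cr2 and Vsig4. Cr2 was at 25.8, 1.48 and 5.13 CPM in TNFdARE ileum, where the 4 B cell markers other than Cr2 summed to 145, 11.6 and 43.97 CPM, with replicate 1 highest for both, against 7.44 to 12.4 CPM in WT.

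Several components that the liver supplies had next to no RNA in either tissue. Mbl1, Mbl2, C8a, C8b and C9 were at or below 0.292 CPM in all 12 libraries. The 6 hepatocyte markers summed to between 1.27 and 8.81 CPM, with Ttr and Fgb at 0 in every synovium library. C3, C4b, Serping1 and C1s1, which the liver also makes, were each at 73.3 CPM or more in every library of both tissues.

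The positions of the induced genes were spread over the genome. C1qa, C1qb and C1qc are neighbours on chromosome 4 and C1ra and C1s1 lie on chromosome 6. C4b, C4a, Cfb and C2 lie on chromosome 17 within 301 to 455 kb of Tnf, the edited gene, and C3 lies 22002 kb away on the same chromosome. Of these 4 neighbours of Tnf, C4a passed in ileum, C2 and Cfb in synovium and C4b in neither, while C3 rose in both. The interaction passed for C4a, C4b and Cfb.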

How the data were processed

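Poly-A RNA libraries (stranded kit, single reads) were sequenced per the labels' protocols. Cutadapt 1.15 and Bowtie2 2.3.3.1 and the build GRCm38 are named in the submitters' processing notes, and the counting tool, its strand setting and the annotation are not given in the sources read. The deposited count table holds raw counts for 46603 genes, of which 98.9% were named from GENCODE M21. The authors also deposited FPKM values for 17046 genes, 28 of the 30 complement genes among them, with no value at 0 although 5756 belong to a count of 0, and these served only as an alternative. The complement genes and gene lists were chosen with earlier results of these data known.

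Counts were tested with edgeR 4.0.16 in R 4.3.3 (TMM scaling, filterByExpr, robust quasi-likelihood F test), the 6 libraries of each tissue alone for the genotype and all 12 libraries for the tissue and interaction contrasts. Only genotype, or the 4 groups, entered the model. SE is the log2 fold change divided by the root of F. All 30 genes are named, values per library are given for those at a mean of at least 1 CPM in some group and called in a genotype or interaction test, and of 26 further complement genes those called in a tissue are named. A few genes first placed on that list are not reported here and are not among the 26. Libraries were paired by replicate number within a tissue only in the replicate block, an alternative. Deviations of same-numbered libraries correlated at 0.229, 0.251 and 0.167 in ileum and 0.501, 0.326 and 0.17 in synovium over 10826 genes. Those of differently numbered libraries correlated at -0.271 to 0.153 in ileum and -0.478 to 0.193 in synovium, so the pairing is not certain. The labels do not say what the numbers share, nor if 1 animal gave both tissues. Alternatives were DESeq2 1.42.0, limma-voom (limma 3.58.1), RLE factors, library size alone, no filter, 1 joint fit, the replicate block, a muscle covariate, log2(FPKM + 1) and log2(FPKM + 0.1) with limma, and leaving out each library. The edgeR code was tested on simulated data. Library totals of 14267834 to 16224402 put 3 counts at 0.173 to 0.219 of the scaled CPM, the limit that a count of 0 allows, for counting error only.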

Additional observations from a re-analysis of the deposited data

Results flagged for a closer look

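The effect of genotype differed between synovium and ileum for 11 of the 28 complement genes tested and 3 of the 16 others tested. These calls come from the interaction test of edgeR over 12 libraries. Of all 16964 genes, 5.28% had a more positive and 6.80% a more negative change in synovium. Values are the log2 change in synovium minus that in ileum, with 3 libraries per group. The more positive changes in synovium were Cfb at 1.68 and Cfi at 3.11. Among the initiating components the more negative changes were C4a at -2.17, C4b at -1.58, Fcna at -2.10 and Colec12 at -1.06. In the alternative pathway they were Cfd at -1.78 and Cfp at -2.12. Among inhibitors they were Cd55 at -1.18, Cd59a at -1.06, Serping1 at -1.21, Cd46 at -1.31 and Clu at -5.52, and the B cell receptor Cr2 stood at -6.88.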

How the results depend on the processing

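Of the 5 counts of complement genes called, those of the tissue contrasts stayed within 1.5 times of the values given under every alternative run, at 22 to 25 in WT and 15 to 20 in TNFdARE mice. The ileum count of 10 became 17 with DESeq2, 16 in the joint fit of 12 libraries and 0 with limma-voom, with log2(FPKM + 1) and with log2(FPKM + 0.1), and ranged from 0 to 19 when 1 library was left out. Those 3 fits with 0 had 18 complement genes each at an unadjusted p under 0.05, and called 0 of all genes, with 4584, 4982 and 5016 at that level. Without a filter 8 were called in ileum, 5 of them among the 10. The synovium count of 16 became 9 with the muscle covariate and ranged from 13 to 16 without 1 library, and the interaction count of 11 ranged from 6 to 20. Scaling by library size alone moved the median ileum change of all genes to 0.105 and split its calls 1218 higher to 161 lower, against 637 to 242.

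The replicate block gave 11 complement genes in ileum, 20 in synovium and 14 in the interaction, and beside the genes named with it above it changed no other call of a complement gene in these comparisons; among the further genes Cr2 passed in ileum (5.32), and Cd93 (-0.63), Itgax (-0.93) and Csmd1 (-1.11) in the interaction. The cause of these shifts was not tested.

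Signs turned only in differences that did not pass. With library size alone C2 (0.057) and Cd59a (0.087) turned in ileum and Cr1l (-0.029) in the interaction. In synovium C1qbp turned in the joint fit (-0.005), C1qbp (-0.227), Colec11 (0.311), C4b (0.200) and C7 (1.894) with the muscle covariate and Cd93 (-0.010) with both FPKM fits. In the interaction Colec10 turned with limma-voom (0.002) and C1rl with RLE factors (0.015) and DESeq2 (0.011). Leaving out single libraries gave ranges of log2 change that crossed 0 for Cr1l -0.012 to 0.069, Masp1 -0.440 to 0.062, C2 -0.298 to 0.116 and Cd59a -0.128 to 0.133 in ileum, for C1qbp -0.105 to 0.123, Cd93 -0.030 to 0.200 and Colec10 -1.137 to 0.287 in synovium, and for C6 -0.163 to 0.738, C1s1 -0.345 to 0.132, C1rl -0.120 to 0.250, Colec10 -0.777 to 0.645, Vsig4 -0.455 to 1.986 and C7 -1.580 to 0.077 in the interaction.

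Hc, Masp2 and, in ileum, Colec11 stayed under the depth needed for a test. The strand setting of the counts is not known, so reads of Masp2, 54.9% of whose exon bases lie under Tardbp on the opposite strand, cannot be told apart from that gene's.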

Other observations

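Some complement genes varied more with the replicate number than with genotype. Fcnb, ficolin B, a lectin of neutrophils and their precursors, was at 8.63, 34.6 and 13.4 CPM in TNFdARE synovium and 5.26, 26.6 and 10.5 CPM in WT synovium, and at 0 in all 6 ileum libraries. Replicate 2 was the highest in both genotypes, as it was for the neutrophil granule genes Ngp (259, 1156 and 493 CPM against 244, 918 and 461) and Camp (85.2, 421 and 164 CPM against 92.8, 333 and 147). Cpn1, a carboxypeptidase that inactivates C3a and C5a, showed the same in ileum, at 4.76, 16.4 and 4.50 CPM in TNFdARE and 5.75, 18.5 and 4.50 CPM in WT, again with replicate 2 highest in both groups.

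C1rb and C1s2, the gene copies of C1ra and C1s1, were at 2.22, 0.422 and 1.05 CPM and 1.90, 0.282 and 1.05 CPM in TNFdARE ileum, against at most 0.141 and 0.277 CPM in WT ileum. C4bp, a C4b-binding inhibitor, was an ileum gene, at 2.92, 4.43 and 4.71 CPM in TNFdARE and 6.03, 3.87 and 7.74 CPM in WT ileum and at most 0.058 CPM in synovium. Vsig4 was the reverse, at 25.2 to 32.9 and 36.5 to 43.2 CPM in the synovium groups and at most 0.070 CPM in ileum.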
